A study of Mus musculus with 12 samples.

Results

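The transcripts of 9 genes of the synaptonemal complex and of meiotic recombination (*Sycp1*, *Sycp2*, *Sycp3*, *Hormad1*, *Hormad2*, *Dmc1*, *Msh4*, *Msh5* and *Mlh3*) were followed in mouse oocytes across the pubertal transition. They were taken by gene symbol from the 24562 genes of the count table, and all 9 passed the filter on low counts that left 13943 genes to be tested. RNA-Seq was carried out on 12 pools of oocytes from CD-1 females, an outbred stock, that had received no hormonal stimulation. The 4 cohorts, with 3 pools in each, were PND 13 and PND 40 (postnatal days) and, at PND 16, small and large mice divided by body weight. The oocytes were collected from antral follicles into medium with milrinone, a phosphodiesterase inhibitor that holds meiotic arrest, freed of cumulus cells by pipetting and frozen in pools of 18 to 45. Each condition drew on 3 mice and its pools were independent, but whether a pool held the oocytes of a single mouse is not stated, so that p-values measure only the spread between pools, which may be partly technical. Following the study, PND 16 large and PND 40 oocytes were grouped as meiotically competent, and PND 13 and PND 16 small oocytes as non-competent. In the paper, a competent oocyte leaves its arrest and also completes maturation as far as metaphase II. For PND 16, the link of competence to body weight rests on few mice, whose data the paper does not show. No maturation test of the sequenced pools is reported, so the groups stand for cohorts and not for measured competence. Total counts ranged from 17671193 to 27418358 per pool.

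The synaptonemal complex is the protein zipper that holds homologous chromosomes together in meiotic prophase. HORMA domain proteins and SYCP2 and SYCP3 form the chromosome axes, and SYCP1 forms the transverse filaments that join them. DNA breaks made along the axes are repaired by strand exchange with the homolog, for which DMC1 is the meiosis-specific recombinase. A subset is stabilized by the MSH4-MSH5 complex and resolved as crossovers by a complex that contains MLH3. In the female mouse these events take place mostly before birth, and the oocytes of growing and antral follicles have long been arrested past this stage. The comparisons below therefore concern transcripts that are present after the process they are known for.

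Promoter sequences of 4 of the genes are shown because 3 of them (*Sycp1*, *Sycp3* and *Hormad1*) hold a motif described below and the fourth, *Mlh3*, had the clearest difference between cohorts. They are RefSeq sequences of GRCm38.p6, 5′ to 3′ on the strand of the gene, 300 bases that run from upstream of its start to just past it. Capitals mark CACGTG (the E-box core) and TCCCGC, an E2F-type motif, searched on both strands, so that GCGGGA is the latter on the other strand.
Sycp1 (chr3:102936051-102936350, minus strand): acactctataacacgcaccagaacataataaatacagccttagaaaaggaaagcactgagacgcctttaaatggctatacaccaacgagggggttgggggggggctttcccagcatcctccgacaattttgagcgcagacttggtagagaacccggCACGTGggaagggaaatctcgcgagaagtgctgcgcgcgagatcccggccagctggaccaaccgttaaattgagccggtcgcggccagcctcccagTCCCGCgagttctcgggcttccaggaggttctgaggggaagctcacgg
Sycp3 (chr10:88459337-88459636, plus strand): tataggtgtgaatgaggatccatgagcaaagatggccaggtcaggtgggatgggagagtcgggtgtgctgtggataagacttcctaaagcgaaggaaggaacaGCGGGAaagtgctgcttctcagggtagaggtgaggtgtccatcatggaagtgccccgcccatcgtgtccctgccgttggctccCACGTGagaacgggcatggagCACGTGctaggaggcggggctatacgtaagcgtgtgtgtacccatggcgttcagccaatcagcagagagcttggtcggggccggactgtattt
Hormad1 (chr3:95559427-95559726, plus strand): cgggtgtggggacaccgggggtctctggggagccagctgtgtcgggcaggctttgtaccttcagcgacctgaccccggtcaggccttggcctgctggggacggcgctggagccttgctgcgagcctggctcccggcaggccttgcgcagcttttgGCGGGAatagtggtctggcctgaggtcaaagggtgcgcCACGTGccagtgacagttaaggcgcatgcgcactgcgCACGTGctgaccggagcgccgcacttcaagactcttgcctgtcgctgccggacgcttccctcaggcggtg
Mlh3 (chr12:85270550-85270849, minus strand): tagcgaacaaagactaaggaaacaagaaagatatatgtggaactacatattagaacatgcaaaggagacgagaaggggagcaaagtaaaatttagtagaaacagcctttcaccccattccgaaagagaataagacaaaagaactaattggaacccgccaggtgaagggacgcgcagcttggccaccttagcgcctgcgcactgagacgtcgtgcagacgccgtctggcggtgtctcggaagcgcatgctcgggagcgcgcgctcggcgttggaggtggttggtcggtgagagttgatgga
The E-box core was found in 3 of the 9 promoters, with 2 matches in each of *Sycp3* and *Hormad1*, against 7.24% of 27025 promoters of the same length. TCCCGC was found in 5 of the 9, those of *Sycp1*, *Sycp3*, *Hormad1*, *Dmc1* and *Msh5*, against 20.0% of all promoters. The cyclic AMP response motif TGACGTCA was in none of the 9 and in 1.88% of all. These matches describe the letters of the window and do not show that a factor binds there. The windows shown held 21 (*Sycp1*), 15 (*Sycp3*), 24 (*Hormad1*) and 22 (*Mlh3*) CpG dinucleotides, at percentiles 75.0, 64.8, 80.0 and 76.7 of all promoters, whose median was 7. *Msh4* had 6.

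In all pools, the transcripts of the axis and crossover genes spanned a wide range of levels. Expression is given as CPM (the gene's reads as a share of the pool's total, with TMM scaling) and, where genes are compared with each other, as CPM per kb of merged exons. Averaged over the 12 pools, *Sycp3* had the highest length-normalised level of the 9 genes, with 26.7 ± 10.1 CPM per kb (SD, n = 12 pools), and *Sycp2*, its partner in the axis, had 19.9 ± 3.90 CPM per kb. The ranges of these 2 genes overlapped, and at PND 40 their order was reversed, with means of 16.1 for *Sycp3* and 17.1 CPM per kb for *Sycp2*. *Msh4* came next with 6.74 ± 0.910 CPM per kb. *Mlh3* (1.93 ± 0.920) and *Sycp1* (1.89 ± 0.804 CPM per kb) did not differ beyond their spread over the 12 pools, but they did within cohorts. At PND 13 *Mlh3* was higher, with 2.67 to 3.03 against 1.69 to 1.92 CPM per kb. In PND 16 large *Mlh3* was lower, with 1.05 to 1.23 against 1.33 to 2.54 CPM per kb. Over the 12 pools, the length-normalised levels of *Hormad1* (1.01 ± 2.00) and *Hormad2* (0.695 ± 0.291 CPM per kb) overlapped. The mean of *Hormad1* was carried by 2 pools described below, and its median over the pools, 0.189 CPM per kb, lay below the 0.680 of *Hormad2*. *Msh5*, whose product works only as a partner of MSH4, had 0.203 ± 0.0730 CPM per kb, and *Dmc1* had the lowest mean with 0.144 ± 0.107 CPM per kb. In PND 16 large the order of these 2 was reversed, with 0.188 for *Msh5* and 0.263 CPM per kb for *Dmc1*. The ranges of *Sycp1* and *Hormad1*, of *Hormad2* and *Msh5* and of *Msh5* and *Dmc1* overlapped as well. The highest and the lowest of these means differed 186-fold.

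**Figure D1:**
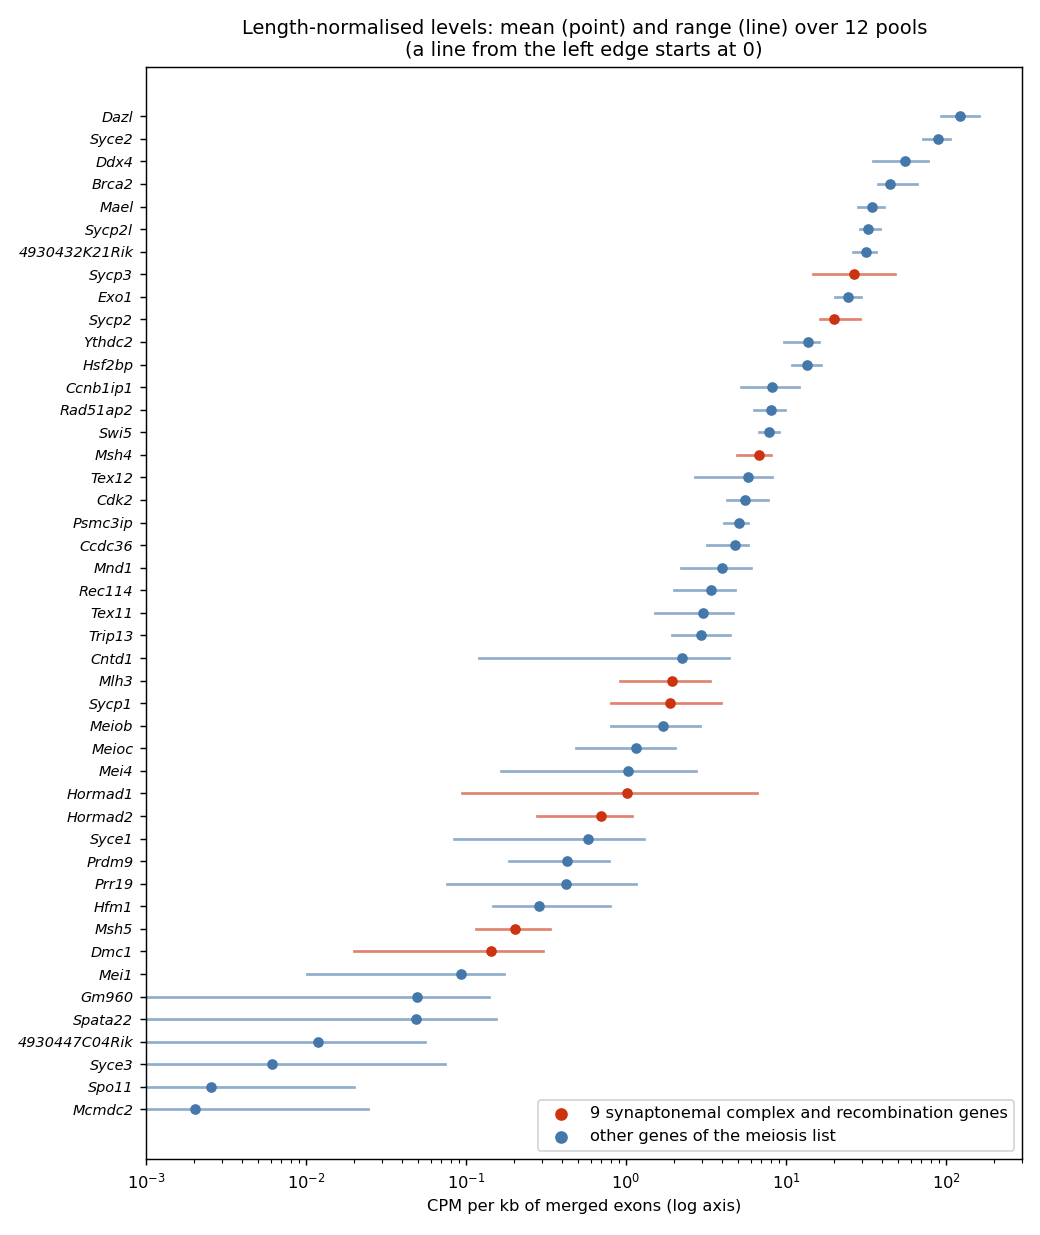
Length-normalised level (CPM per kb of merged exons, log axis) of the 9 genes (red) and of the other meiosis genes of the list described below (blue); points are means and lines the range over 12 pools. The 9 genes run from *Dmc1* at 0.144 to *Sycp3* at 26.7 CPM per kb, and *Stra8*, at 0 in every pool, is not drawn, nor are genes that are not reported here.

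Cohorts were compared by the quasi-likelihood test of edgeR, with p-values adjusted by the Benjamini-Hochberg procedure for the 13943 genes. A gene was called when its adjusted p did not exceed 0.05 and its change reached 1.5-fold. None of the 9 genes was called in PND 16 small vs. PND 13, where 0.373% of all genes tested were. At an unadjusted p under 0.05 there were 2 in that comparison (*Sycp2* and *Dmc1*), and DESeq2 called 0. In PND 16 large vs. PND 13, 1 of the 9 was called (*Mlh3*), against 13.3% of all genes, and again 1 (*Mlh3*) in large vs. small mice of PND 16, against 6.19%. In PND 40 vs. PND 13, 2 were called (*Hormad2* and *Mlh3*), against 18.9% of all genes, and in PND 40 vs. PND 16 small 4 were (*Sycp1*, *Sycp2*, *Sycp3* and *Mlh3*), against 17.2%. In PND 40 vs. PND 16 large, the comparison of both competent cohorts, 0 were called against 3.66% of all genes, with 1 at an unadjusted p under 0.05 (*Sycp3*), which was also the 1 gene that DESeq2 called. In competent vs. non-competent oocytes 2 were called (*Hormad1* and *Mlh3*), against 15.0%.

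Each call of the 9 genes was of a lower level in the older or competent oocytes. Calls in that direction made up 9.80% of all genes tested when PND 16 large was compared with PND 13, 4.76% in PND 16 large vs. PND 16 small, 12.6% in PND 40 vs. PND 13, 10.3% in PND 40 vs. PND 16 small and 11.2% in competent vs. non-competent oocytes. With 9 genes, 1 call in each of the comparisons with PND 16 large is near these shares. The 4 calls in PND 40 vs. PND 16 small stand against a background of 10.3%. Without PND 16 small replicate 3, the highest pool for *Sycp1*, *Sycp2* and *Sycp3*, 1 call was left (*Mlh3*). Without PND 40 replicate 1 or without PND 40 replicate 2, 2 calls were left. The median log2 fold change of the 9 genes in that comparison was -0.59, beside -0.01 over all genes tested, and in competent vs. non-competent oocytes it was -0.45 beside -0.00458. It was -0.73 beside 0.0044 in PND 40 vs. PND 13, -0.61 beside 0.0037 in PND 40 vs. PND 16 large, -0.27 beside -0.02 in PND 16 large vs. PND 16 small and -0.12 beside -0.03 in PND 16 small vs. PND 13. In PND 16 large vs. PND 13 it was positive, 0.09 beside -0.04, with 5 of the 9 genes above 0. These comparisons share pools and are not independent of each other.

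**Figure D2:**
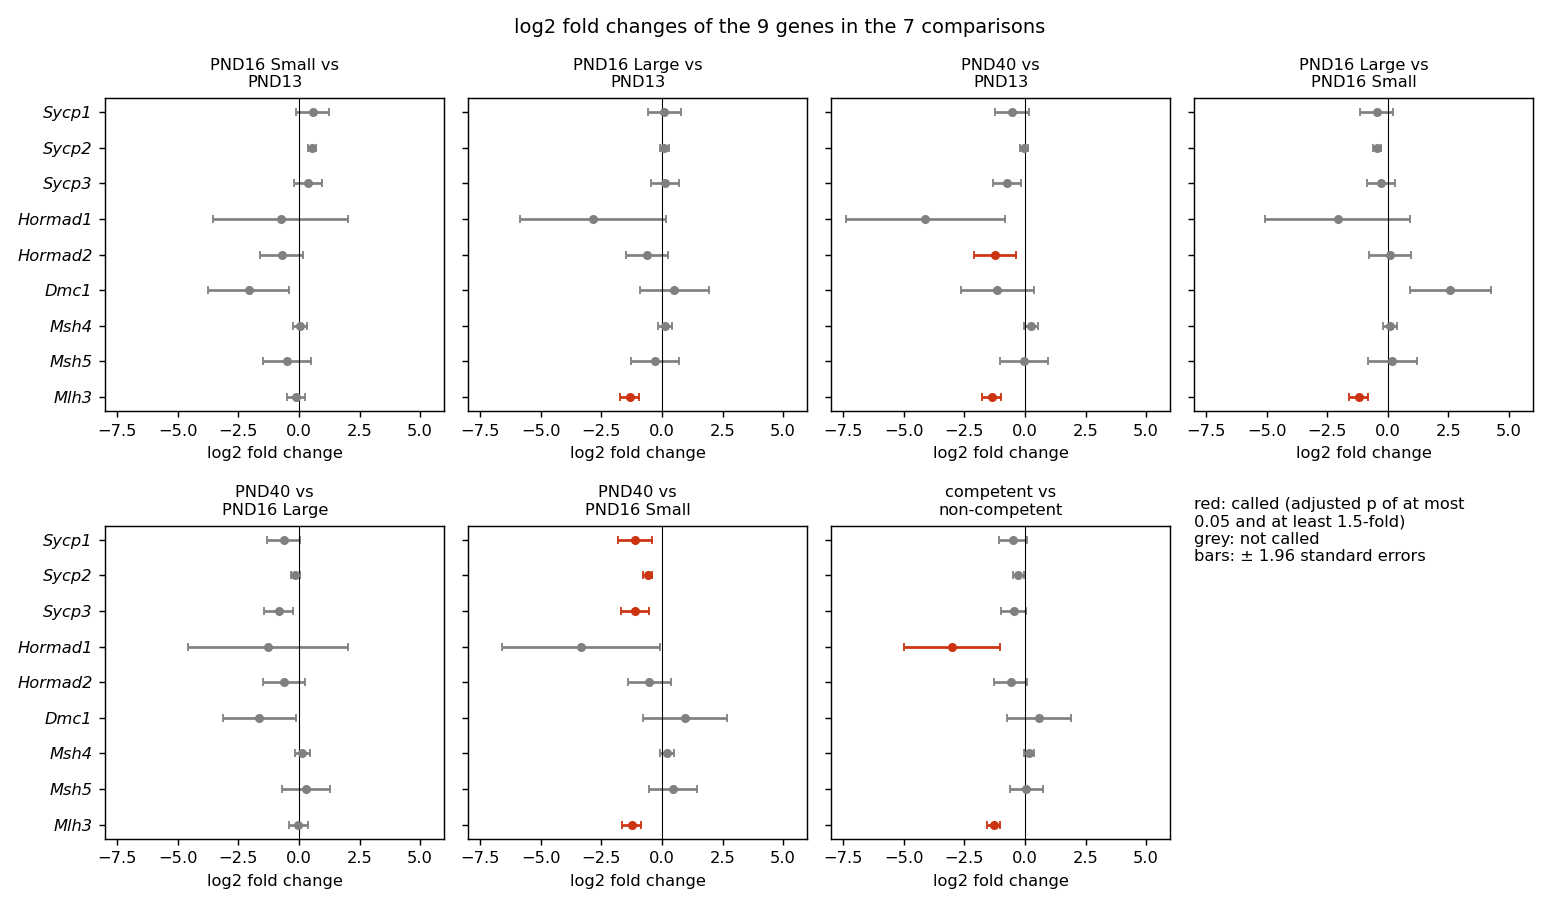
log2 fold changes of the 9 genes in the 7 comparisons, with approximate 95% intervals as bars; red marks the genes called. *Mlh3* is red in 5 of the 7 panels, and the intervals of *Hormad1* and *Dmc1* are the widest.

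*Mlh3*, which acts in crossover resolution (chromosome 12, 85234520 to 85270599, minus strand, GRCm38), separated competent from non-competent oocytes. It had 21.5, 20.2 and 22.9 CPM in the PND 13 pools and 25.4, 13.6 and 20.5 CPM in the PND 16 small pools. In PND 16 large it had 8.51, 7.93 and 9.31 CPM, and at PND 40 it had 6.95, 8.80 and 9.29 CPM. The lowest non-competent pool, PND 16 small replicate 2, thus lay above the highest competent pool, and both competent cohorts overlapped. These groups also did not overlap in 14.7% of all genes tested, so the separation by itself is not particular to *Mlh3*. *Mlh3* fell by 1.29 on the log2 scale in competent oocytes (SE 0.142, adjusted p = 3.62e-05 by edgeR's quasi-likelihood test), from a mean of 20.7 ± 3.96 to 8.46 ± 0.907 CPM (SD, n = 6 pools each). Between the separate cohorts the log2 fold change was -1.33 in PND 16 large vs. PND 13 (adjusted p = 0.000777), -1.21 in PND 16 large vs. PND 16 small (adjusted p = 0.00341), -1.37 in PND 40 vs. PND 13 (adjusted p = 0.000286) and -1.25 between PND 40 and PND 16 small (adjusted p = 0.000618), each with an SE of 0.202. Within the competent cohorts it was -0.04 (95% interval -0.43 to 0.36, adjusted p = 0.940), and within the non-competent cohorts -0.12 (-0.51 to 0.27, adjusted p = 0.789). Mice of the same age, PND 16 small and large, were therefore on different sides of this difference. The call of *Mlh3* held in its 5 comparisons under each alternative setting and without each pool in turn, with adjusted p of at most 0.0284.

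**Figure D3:**
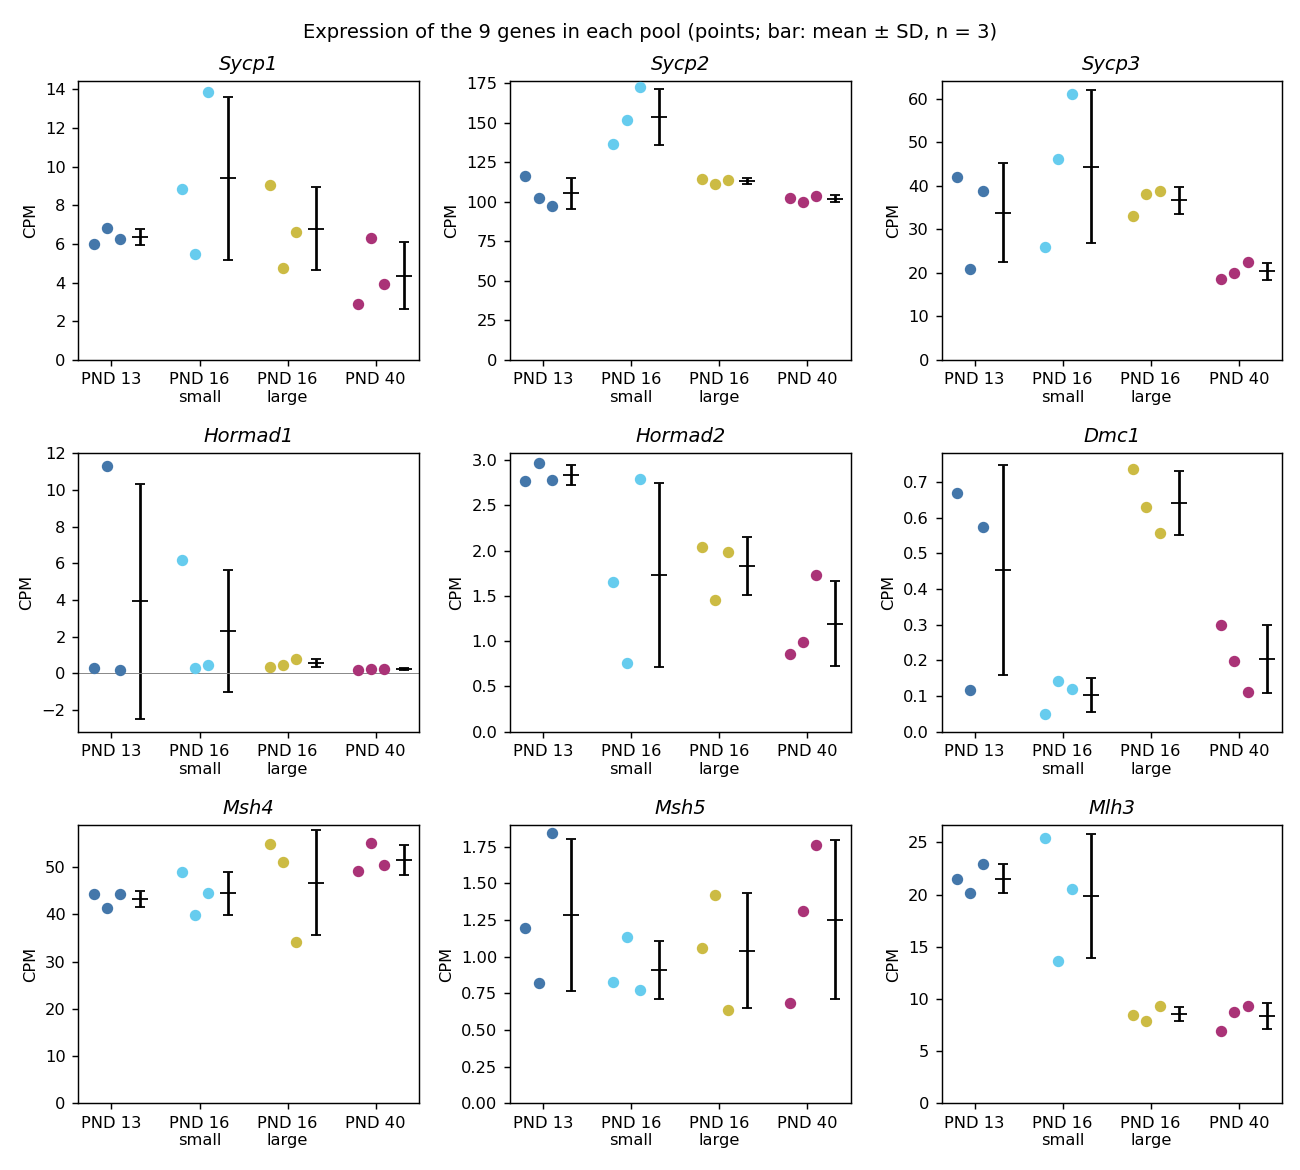
CPM of each of the 9 genes in each pool (points), by cohort, with the mean ± SD of 3 pools beside them; each panel has its own axis. *Mlh3* drops from at least 13.6 CPM in PND 13 and PND 16 small pools to at most 9.31 CPM in PND 16 large and PND 40 pools, and *Hormad1* is high in 1 pool of PND 13 and 1 of PND 16 small.

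*Sycp1*, *Sycp2* and *Sycp3* had their highest cohort mean in PND 16 small and their lowest at PND 40. *Sycp1*, the transverse filament gene (chromosome 3, 102818499 to 102936100, minus strand), had 6.02, 6.83 and 6.26 CPM at PND 13 and 8.84, 5.50 and 13.9 CPM in PND 16 small. It had 9.04, 4.73 and 6.61 CPM in PND 16 large and 2.87, 6.29 and 3.93 CPM at PND 40. PND 40 replicate 2 lay above PND 16 small replicate 2, so that these cohorts overlapped. In PND 40 vs. PND 16 small *Sycp1* fell by 1.10 on the log2 scale (SE 0.355, adjusted p = 0.0312, edgeR). This call was lost, with an adjusted p of 0.149, without PND 16 small replicate 3, the highest pool, and with an adjusted p of 0.124 and 0.0985 without PND 40 replicates 1 and 3. In a model of the compared cohorts alone its adjusted p was 0.0729 by edgeR.

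*Sycp2*, which encodes an axis protein (chromosome 2, 178345293 to 178407685, minus strand), stood highest in PND 16 small. Its levels were 116.2, 102.6 and 97.2 CPM at PND 13 and 136.5, 151.6 and 172.4 CPM in PND 16 small. They were 114.1, 111.2 and 113.8 CPM in PND 16 large and 102.6, 99.7 and 103.6 CPM at PND 40. Each PND 16 small pool lay above the 9 other pools. Over all genes tested, PND 16 small did not overlap PND 13 in 18.1%, PND 16 large in 31.5% and PND 40 in 43.9%. The share for all cohorts at once was not computed. The log2 fold change was 0.54 in PND 16 small vs. PND 13 (SE 0.0890, adjusted p = 0.0309) and -0.44 in PND 16 large vs. PND 16 small (SE 0.0888, adjusted p = 0.00781), both past the p threshold of edgeR's quasi-likelihood test but below a 1.5-fold change. Without PND 13 replicate 1 or PND 16 small replicate 1, the former reached 0.62 and was called (adjusted p = 0.0269 and 0.00210, edgeR). In PND 40 vs. PND 16 small *Sycp2* fell by 0.59 on the log2 scale, 1.51-fold (SE 0.0890, adjusted p = 0.000388), just past that criterion. The adjusted p stayed at or below 0.00380 under each alternative setting and without each pool in turn, and the fold dropped below 1.5 when pools were scaled by total counts alone, without the low-count filter, and without PND 16 small replicate 3 or PND 40 replicate 2.

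*Sycp3*, whose product coats the axes (chromosome 10, 88459569 to 88473236, plus strand), had the lowest levels at PND 40. It had 42.0, 20.8 and 38.7 CPM at PND 13 and 26.0, 46.1 and 61.0 CPM in PND 16 small. It had 33.0, 38.0 and 38.9 CPM in PND 16 large and 18.7, 20.0 and 22.4 CPM at PND 40. The PND 40 pools overlapped the other 9 pools only through PND 13 replicate 2. Over all genes tested, PND 40 did not overlap PND 16 small in 43.9% and PND 16 large in 39.3%. From PND 16 small to PND 40 *Sycp3* fell by 1.12 on the log2 scale (SE 0.299, adjusted p = 0.0157, edgeR), a call lost without PND 16 small replicate 3 (adjusted p = 0.0572), PND 40 replicate 1 (0.0587) or PND 40 replicate 2 (0.0505). The log2 fold change was -0.73 in PND 40 vs. PND 13 (adjusted p = 0.0810, and called at -0.99 without PND 13 replicate 2, adjusted p = 0.0127) and -0.85 in PND 40 vs. PND 16 large (adjusted p = 0.119). With all pools, DESeq2 called *Sycp3* in both (-0.74, adjusted p = 0.0253, and -0.86, adjusted p = 0.0234), and the edgeR model of the compared cohorts alone called it in the latter (adjusted p = 0.000340). The exons of *Sycp3* share 660 bases, 52.2% of their length, with those of *Chpt1*, a phospholipid synthesis gene on the opposite strand. Libraries were directional, but whether counting used the strand is not given in the sources used here, and without it reads of these genes cannot be told apart. *Chpt1* averaged 2.80 CPM and its log2 fold change in PND 40 vs. PND 16 small was -0.95 (adjusted p = 0.0167, edgeR).

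Of the HORMA domain genes, *Hormad1* (chromosome 3, 95559677 to 95587671, plus strand) was set by a single pool in each of the non-competent cohorts. It had 0.286, 11.3 and 0.164 CPM at PND 13 and 6.17, 0.284 and 0.474 CPM in PND 16 small. It had 0.368, 0.473 and 0.796 CPM in PND 16 large and 0.172, 0.239 and 0.257 CPM at PND 40. PND 13 replicate 2 and PND 16 small replicate 1 held 417 of the 499 counts of the gene, 83.6%, and the other 10 pools had 4 to 20 counts each. Competent vs. non-competent oocytes gave a log2 fold change of -3.01 (SE 1.02, adjusted p = 0.0390, edgeR) although the groups overlapped. Without those pools, an alternative chosen after seeing the data, the log2 fold change was 0.36 (adjusted p = 0.678), and the call was also lost without PND 13 replicate 2 alone (adjusted p = 0.111) or PND 16 small replicate 1 alone (adjusted p = 0.0672). It was lost too without PND 16 large replicate 1 or 2 or any PND 40 pool, with adjusted p of 0.0642 to 0.0822.

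The pools with high *Hormad1* also stood apart in other genes. PND 13 replicate 2 and PND 16 small replicate 1 were each other's most similar pool, with a correlation of log2 CPM of 0.975 across genes. PND 16 small replicates 2 and 3 were also nearest to a pool of another cohort, PND 16 large replicate 3 (0.969 and 0.958). No PND 16 small pool was thus nearest to one of its own cohort. Of 15 genes listed as markers of granulosa cells, the somatic cells around the oocyte, none was at 0 in any pool. PND 13 replicate 2 was the lowest of its cohort for 13 of them and PND 16 small replicate 1 for 11. The cell source of each transcript was not tested. The summed level of the 15 genes was 838, 488 and 932 CPM at PND 13 and 530, 1051 and 634 CPM in PND 16 small. It ranged from 634 to 674 CPM for large mice of PND 16 and from 563 to 606 CPM at PND 40. The genes of this list did not move together. *Serpine2* had 4168 to 8380 counts per pool, *Nr5a2* 2162 to 3563 and *Esr2* 1719 to 3871, and they hold a large part of the sum. In contrast, *Amh* had 8 to 740 counts per pool and *Gja1* 35 to 2707, a drop that the sum understates. *Inha*, an inhibin subunit gene, had 97.0, 2.34 and 143 CPM at PND 13 and 4.42, 130 and 16.5 CPM in PND 16 small, the reverse of the order of *Hormad1* in these pools. In bulk RNA, fewer cells of a type and less RNA per cell cannot be told apart. The part of granulosa cell RNA in the differences of *Hormad1* was not tested. *Golph3l*, the next gene downstream of *Hormad1* on the same strand, had 41.2, 41.3 and 46.6 CPM at PND 13 and 34.7, 41.8 and 45.0 CPM in PND 16 small, and so was not high in the same pools. The 10 oocyte genes of a marker list together made up 14132 to 18679 CPM in each pool, and 10 genes listed for theca and stroma 61.0 to 95.6 CPM, with 0 to 2 of them at 0 in a pool. The largest part of the latter sum was *Pecam1*, with 1029 to 1646 counts per pool. *Cyp17a1* had at most 6 counts and *Lhcgr* at most 30, so the sum does not give a level of theca cells.

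**Figure D4:**
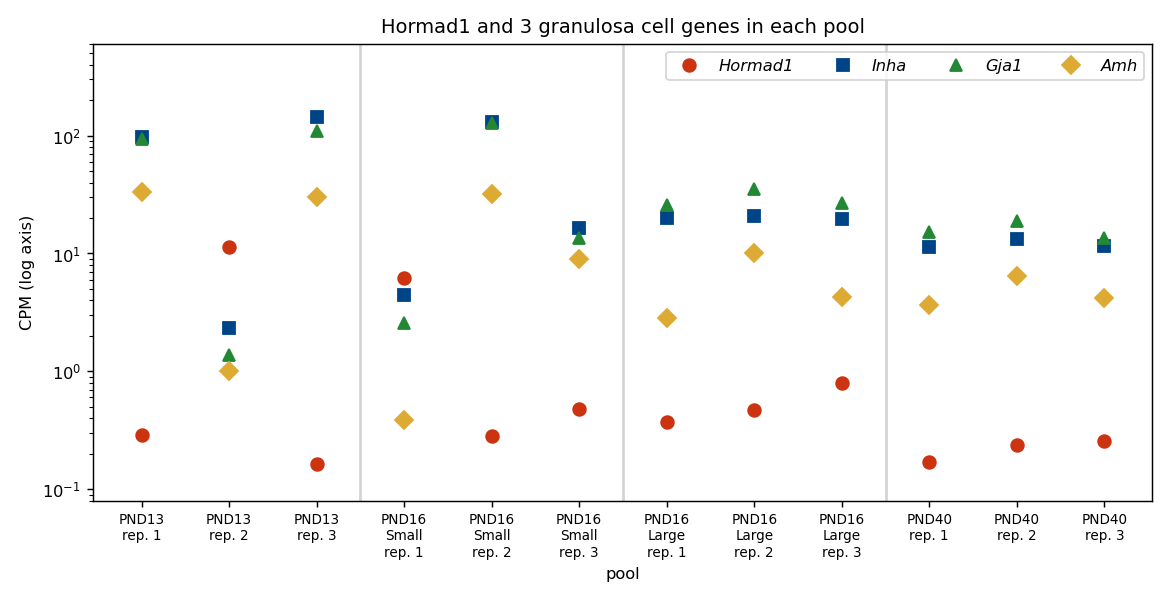
CPM (log axis) of *Hormad1* and of the granulosa cell genes *Inha*, *Gja1* and *Amh* in each of the 12 pools. In PND 13 replicate 2 and PND 16 small replicate 1, *Hormad1* is at 11.3 and 6.17 CPM and *Inha* at 2.34 and 4.42 CPM, whereas *Hormad1* is at most 0.796 CPM and below all 3 other genes in the remaining pools.

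The other genes were also examined without PND 13 replicate 2 and PND 16 small replicate 1, the setting chosen after seeing the data. It leaves 2 pools in each of these cohorts. *Sycp3*, which was the lowest of its cohort in both, was then called in PND 40 vs. PND 13 (log2 fold change -1.01, adjusted p = 0.000101), in PND 40 vs. PND 16 large (-0.86, adjusted p = 0.000948) and in competent vs. non-competent oocytes (-0.73, adjusted p = 0.0267, edgeR). Leaving out the lowest pool of a cohort raises its mean and narrows its spread by construction, so these calls of *Sycp3* are no separate support. *Sycp1* in PND 40 vs. PND 16 small and *Hormad2* in PND 40 vs. PND 13 were not called (adjusted p = 0.0512 and 0.0639, edgeR). The call of *Mlh3* held in its 5 comparisons.

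*Hormad2*, the paralog of *Hormad1* on unsynapsed axes (chromosome 11, 4345814 to 4441105, minus strand), was evenly expressed at PND 13, with 2.77, 2.97 and 2.78 CPM. It had 1.65, 0.758 and 2.79 CPM in PND 16 small, 2.04, 1.46 and 1.99 CPM in PND 16 large and 0.858, 0.995 and 1.73 CPM at PND 40. The PND 13 pools lay above each PND 40 and PND 16 large pool, and PND 16 small spanned both. Over all genes tested, PND 13 did not overlap PND 40 in 50.8% and PND 16 large in 45.5%. From PND 13 to PND 40 *Hormad2* fell by 1.24 on the log2 scale (SE 0.448, adjusted p = 0.0471, edgeR), on 16 to 76 counts per pool over the cohorts. This call was lost in 5 of the 6 fits that left out 1 pool, with adjusted p of up to 0.154 without PND 40 replicate 1, and held without PND 40 replicate 3 (adjusted p = 0.0378). Without the low-count filter the adjusted p was 0.0570 by edgeR.

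*Dmc1*, the recombinase gene (chromosome 15, 79561497 to 79605109, minus strand), was at the edge of detection. It had 14, 3 and 14 counts at PND 13 and 1, 3 and 2 counts in PND 16 small. It had 18, 16 and 14 counts in PND 16 large and 7, 5 and 3 counts at PND 40. PND 16 large pools held 0.557 to 0.736 CPM and PND 16 small pools 0.0486 to 0.142 CPM, without overlap. These cohorts did not overlap in 31.5% of all genes tested. Against the 6 counts of PND 16 small, the 48 counts of PND 16 large gave a ratio of 6.25 (95% exact interval 2.67 to 17.9, counting error only), and the 31 counts of PND 13 gave 4.26 (1.75 to 12.5). The 15 counts of PND 40 gave 1.93 (0.709 to 6.09), an interval that includes equal levels. PND 16 small was made the reference with its low counts known. With the spread between pools included, edgeR's quasi-likelihood test gave adjusted p of 0.0622 for PND 16 large and 0.207 for PND 13 against PND 16 small. *Dmc1* was called in none of the 7 comparisons.

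The MutS homologs *Msh4* and *Msh5*, whose products form 1 complex, were called in none of the 7 comparisons. *Msh4* (chromosome 3, 153857149 to 153906138, minus strand) had 44.3, 41.2 and 44.2 CPM at PND 13 and 49.0, 39.9 and 44.6 CPM in PND 16 small. It had 54.9, 51.1 and 34.1 CPM in PND 16 large and 49.1, 55.1 and 50.4 CPM at PND 40. Its log2 fold change in competent vs. non-competent oocytes was 0.16 (95% interval -0.05 to 0.37, adjusted p = 0.262, edgeR), so that a change beyond 1.5-fold lies outside the interval. *Msh5* (chromosome 17, 35028605 to 35046745, minus strand) had 0.637 to 1.84 CPM, 13 to 48 counts, over the 12 pools. Its interval for the same comparison was wider, -0.63 to 0.75 on the log2 scale around 0.06 (adjusted p = 0.914, edgeR), and a 1.5-fold change in either direction lies within it. Per kb of merged exons, the mean of *Msh4* was 6.74 CPM and that of *Msh5* 0.203 CPM.

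Other genes of meiotic prophase were taken from a list of 44, of which 39 were in the table and 32 were tested. Of these 32, 0 were called in PND 16 small vs. PND 13 (4 at an unadjusted p under 0.05 by edgeR, and 0 called by DESeq2), 4 in PND 16 large vs. PND 13 (2 higher, 2 lower), 3 in PND 16 large vs. PND 16 small (2 higher, 1 lower) and 6 in PND 40 vs. PND 13 (3 higher, 3 lower). The shares of all genes called in these comparisons were 0.373%, 13.3%, 6.19% and 18.9%. There were 1 in PND 40 vs. PND 16 large (higher), 7 in PND 40 vs. PND 16 small (3 higher, 4 lower) and 5 in competent vs. non-competent oocytes (3 higher, 2 lower). The shares of all genes here were 3.66%, 17.2% and 15.0%, and the list's counts lie near these backgrounds. Its median log2 fold change in competent vs. non-competent oocytes was 0.05 beside -0.00458 over all genes. A difference between the list and the 9 genes was not tested.

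Among the list's axis genes, *Mei4*, which encodes an axis protein needed for DNA breaks, rose by 2.35 on the log2 scale in competent oocytes (SE 0.403, adjusted p = 0.000702, edgeR), with means of 1.81 ± 0.649 at PND 13, 0.957 ± 0.256 in PND 16 small, 9.39 ± 1.72 in PND 16 large and 4.85 ± 3.58 CPM at PND 40 (SD, n = 3 each). Of the genes for break formation, *Prdm9*, which encodes the histone methyltransferase that places the breaks, fell by 0.96 (SE 0.253, adjusted p = 0.0106). *Spo11*, the gene for the enzyme that cuts the DNA, had at most 2 counts in a pool and was not tested, and *Mei1* had 1 to 20 counts and an adjusted p of 0.592 in the same comparison. Of the genes for strand exchange, *Brca2*, which acts in loading of the recombinases, had 509 to 903 CPM over the pools. It was called in no comparison, and in competent vs. non-competent oocytes its log2 fold change was -0.01 (adjusted p = 0.981, edgeR).

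Of the crossover genes on the list, *Tex11* rose by 0.74 (SE 0.192, adjusted p = 0.00956) and *Ccnb1ip1* (HEI10, a crossover regulator) by 0.67 on the log2 scale (SE 0.139, adjusted p = 0.00246) in competent vs. non-competent oocytes by edgeR's test, the opposite direction to *Mlh3*. *Cdk2*, a kinase present at crossover sites, fell by 0.65 in PND 40 vs. PND 13 (SE 0.147, adjusted p = 0.00466). *Trip13*, whose product removes HORMA domain proteins from axes, had a log2 fold change of -0.49 in competent oocytes (SE 0.163, adjusted p = 0.0347), under the 1.5-fold criterion. Of the genes of germ cells and meiotic entry, *Ddx4* fell by 0.82 in competent oocytes (SE 0.0863, adjusted p = 2.68e-05), and *Ythdc2* fell by 0.64 in PND 40 vs. PND 13 (SE 0.0708, adjusted p = 4.81e-05). *Dazl* had the highest length-normalised level of the list, 122 CPM per kb, and *Stra8*, the retinoic acid target of meiotic entry, had 0 counts in each of the 12 pools.

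The patterns of the 9 genes over the 12 pools were compared with those of genes whose mean reached 1 CPM by Pearson's correlation of log2 CPM, given as a description (n = 12 pools, which share cohorts). *Mlh3* had the closest neighbours, *B230219D22Rik* (r = 0.985) and *Sall2* (r = 0.984). *Sycp2* was nearest to *Bora* (0.960) and *Cd2ap* (0.939), *Sycp3* to *Uba6* (0.953) and *Efr3b* (0.949), and *Sycp1* to *Atf7ip2* (0.889) and *Usp32* (0.887). *Hormad1* was nearest to *Cnksr3* (0.904) and *Zfp961* (0.901), and *Hormad2* to *Ankrd24* (0.903) and *Tmed2* (0.890). *Dmc1* was nearest to *Cadps* (0.903) and *Rps24* (0.896), *Msh4* to *Prrg2* (0.847) and *Bckdhb* (0.810), and *Msh5* to *Etv3* (0.875) and *Ndufa13* (0.857). Among the 9 genes themselves, the highest correlation was that of *Sycp2* and *Sycp3* (r = 0.673), followed by *Sycp1* and *Sycp2* (0.598), *Hormad2* and *Mlh3* (0.594). *Msh4* and *Msh5* had r = 0.407, and *Hormad1* and *Hormad2* had r = 0.331 (n = 12 pools each).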

How the data were processed

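RNA-Seq was carried out on 12 pools of mouse oocytes. The authors depleted ribosomal RNA, made directional libraries, sequenced 50 bp reads and processed them on the Rosalind platform. The submitters' processing notes list FastQC, STAR, HTSeq, DESeq2, HOMER and mm10, without versions or roles, and the strand setting of the counting is not given in the sources used here. The authors deposited raw counts per gene and a log2 table of the same counts divided by a factor per pool, plus 1.

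Cohorts and replicate numbers came from the sample labels. From the counts, TMM-scaled CPM and robust quasi-likelihood tests were computed in R 4.3.3 with edgeR 4.0.16 (filterByExpr, minimum count 10), in 1 model of the 4 cohorts and, for competent vs. non-competent oocytes, a model of these groups. Standard errors were approximated from the log2 fold change and the square root of F, and intervals are approximate. P-values are two-sided. Counts carry no molecular identifiers, so counting intervals cover counting error only. The fit was tested on simulated data. Alternatives used DESeq2 1.42.0, limma 3.58.1 on the deposited log2 values (pseudocount 1) or with a pseudocount of 0.1, other scalings and filters (none, or at least 1 CPM in 3 pools), a model of only the cohorts compared, the 4-cohort model for competent oocytes, no fold criterion, the replicate block and leaving out each pool. Pools of a cohort differed by more than sampling noise (chi-square per gene 9.23 to 49.9). In the table of counts, 5 symbols occur more than once.

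Python 3.11.15 with pandas 2.3.3 was used for annotation. Coordinates and exon lengths are those of GENCODE M21 on GRCm38, and promoters are those of RefSeq, GRCm38.p6, where all 9 genes were matched. The 9 genes and the lists (44 meiosis, 15 granulosa, 10 theca and stroma, 10 oocyte genes) were chosen with earlier results of these data known. Named genes were the 9 genes, *Spo11*, *Trip13*, *Mei1* and *Brca2*, each list gene called in PND 40 vs. PND 13 or competent vs. non-competent oocytes, the highest and lowest list gene per kb, and the 2 nearest genes of each of the 9. *Chpt1*, *Golph3l*, *Inha*, *Gja1*, *Amh*, *Serpine2*, *Nr5a2*, *Esr2*, *Pecam1*, *Cyp17a1* and *Lhcgr* were added after their values were seen. Of the list, 5 genes were not analysed here, and some others that entered the counts are not reported here by name.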

Additional observations from a re-analysis of the deposited data

Results flagged for a closer look

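*Msh4* in PND 16 large replicate 3, at 34.1 CPM, was the lowest of the 6 competent pools and lay far below the others, which ranged from 49.1 to 55.1 CPM. Chance alone sets about 1 in 20 groups apart in this way.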

How the results depend on the processing

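Of 1111 values of single genes under alternative settings, 1030 kept their direction and side of the threshold, 32 lost the call, 11 gained one and 38 changed sign. Of the 38, 1 was of a called value, *Hormad1* in competent oocytes, with a log2 fold change of 0.36 without PND 13 replicate 2 and PND 16 small replicate 1, a setting chosen after seeing the data. The other 37 were of values that were not called, and 0 of the 38 were called after the change. Of the 9 genes, competent vs. non-competent gave 1 call in place of 2 without the low-count filter and with the stricter filter. Neither *Hormad1* nor *Dmc1* was tested under the stricter filter. Competent vs. non-competent also gave 1 call with limma at either pseudocount, in the 4-cohort model and with the replicate block. PND 40 vs. PND 13 gave 1 without the filter, PND 40 vs. PND 16 large gave 1 with DESeq2, with only the cohorts compared and without both pools, and without the fold criterion PND 16 small vs. PND 13 gave 1 and PND 16 large vs. PND 16 small 2. Leaving out each pool gave 0 to 1 in PND 16 small vs. PND 13, 1 to 2 in PND 40 vs. PND 13, 1 to 4 in PND 40 vs. PND 16 small and 1 to 2 in competent oocytes.

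Without both pools, the log2 fold change of *Hormad1* was 0.71 in PND 16 small vs. PND 13, 1.25 in PND 16 large vs. PND 13 and 0.54 in PND 16 large vs. PND 16 small, that of *Msh4* in the first of these was -0.094, that of *Sycp3* in the second -0.16 and that of *Msh5* in competent oocytes -0.13. With total counts it was -0.058 for *Msh4* in PND 16 small vs. PND 13 and -0.0091 for *Sycp1* in PND 16 large vs. PND 13, and limma gave 0.15 and 0.21 (pseudocount 1 and 0.1) for *Hormad1* in PND 16 small vs. PND 13. The other changes of sign came from leaving out each pool. The ranges were then -3.38 to 3.35 (*Hormad1*), -0.035 to 0.099 (*Msh4*) and -0.34 to 0.078 (*Mlh3*) in PND 16 small vs. PND 13. In PND 16 large vs. PND 13 they were -3.40 to 1.27 (*Hormad1*), -0.19 to 0.28 (*Sycp1*), -0.14 to 0.30 (*Sycp3*), -0.040 to 0.28 (*Msh4*) and -0.61 to 0.050 (*Msh5*), and in PND 40 vs. PND 13 -4.67 to 0.0017 (*Hormad1*), -0.10 to 0.029 (*Sycp2*) and -0.36 to 0.32 (*Msh5*). In PND 16 large vs. PND 16 small they were -2.61 to 0.54 (*Hormad1*), -0.27 to 0.60 (*Hormad2*), -0.55 to 0.024 (*Sycp3*), -0.065 to 0.25 (*Msh4*) and -0.10 to 0.44 (*Msh5*). In PND 40 vs. PND 16 large they were -0.046 to 0.27 (*Msh4*), -0.055 to 0.56 (*Msh5*) and -0.12 to 0.076 (*Mlh3*), and in competent oocytes -0.10 to 0.27 (*Msh5*).

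Of the meiosis list, DESeq2 called 10 in PND 40 vs. PND 13, 5 in PND 16 large vs. PND 16 small and 2 in PND 40 vs. PND 16 large. The last was also 2 with RLE factors, the stricter filter, limma at either pseudocount, only the cohorts compared, no fold criterion and without both pools. Without the fold criterion 8 were called in PND 16 large vs. PND 13, 5 in PND 16 large vs. PND 16 small and 11 in competent oocytes. Without both pools, PND 16 small vs. PND 13 gave 2 calls and PND 16 large vs. PND 16 small 1. Leaving out each pool gave 0 to 2 in PND 16 small vs. PND 13 (2 without PND 16 small replicate 1), 1 to 3 in PND 16 large vs. PND 16 small and 0 to 1 in PND 40 vs. PND 16 large.

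Over all genes, PND 16 small vs. PND 13 gave 361 calls with DESeq2, 25 with total counts, 2 with only the cohorts compared, 129 without the fold criterion, 755 without both pools and 3 to 834 without each pool, in place of 52. PND 40 vs. PND 16 large gave 782 with DESeq2, 1084 with only the cohorts compared, 953 without the fold criterion, 819 without both pools and 249 to 307 without each pool, in place of 510. PND 16 large vs. PND 16 small gave 471 with only the cohorts compared, 1715 without the fold criterion and 339 to 1150 without each pool, and PND 16 large vs. PND 13 gave 3567 without the fold criterion and 1167 to 1940 without each pool. Without the fold criterion PND 40 vs. PND 13, PND 40 vs. PND 16 small and competent oocytes gave 4612, 4207 and 4283. The causes were not tested.

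Deviations of same-numbered pools from their cohort means correlated at -0.44 to 0.08, so no pairing by number was seen. With 3 pools per cohort, this check cannot tell whether same-numbered pools shared a batch. With the replicate block, PND 16 small vs. PND 13 gave 10 calls over all genes, PND 40 vs. PND 16 large gave 0 on the meiosis list, and *Sycp1* in PND 40 vs. PND 16 small (adjusted p = 0.0657) and *Hormad1* in competent oocytes (log2 fold change -2.50, adjusted p = 0.141, edgeR) lost their calls. *Dmc1*, *Msh5* and, outside 2 pools, *Hormad1* had at most 48 counts per pool, and how much of the width of their intervals comes from depth was not tested.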
